A study of Mus musculus with 8 samples.

Results

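The regions described here are 235 autosomal stretches of open chromatin that were open in wild-type (WT) LSK+ and LSK- bone marrow cells and were missing from the strongest ATAC-seq peaks of XistΔ/Δ LSK- cells. In ATAC-seq, the Tn5 transposase cuts open chromatin, and a peak is a stretch where sequenced fragments pile up above the local background. The 29829 strongest peaks of each of the 8 peak lists on chromosomes 1 to 19 and X, ranked by the −log10 of the p-value, were called top peaks, and the number is the length of the shortest list. Overlapping top peaks were merged into 53238 regions. A region was taken when it lay on chromosomes 1 to 19 and held a top peak in both LSK- WT libraries, in both LSK+ WT libraries and in neither LSK- XistΔ/Δ library. Of 15598 autosomal regions with a top peak in all 4 WT libraries (the eligible regions), 235 met the last condition, a background share of 1.51%. Ranks in WT and in LSK- XistΔ/Δ libraries therefore chose the regions, and those values are given as a description without a test.

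Xist is the noncoding RNA that coats and silences one X chromosome in female cells, and its deletion in blood stem cells of female mice was studied here for its effect on blood formation. LSK+ cells (Lin-, c-Kit+, Sca-1+) contain the hematopoietic stem cells and multipotent progenitors, and LSK- cells (Lin-, c-Kit+, without Sca-1) are the myeloid progenitors that descend from them. Open sites shared by stem cells and progenitors include promoters used in every cell and enhancers, the distal elements to which transcription factors bind to switch on lineage genes. As stem cells differentiate, part of their enhancers close while those of the chosen lineage open.

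Cells were sorted from bone marrow of 4.5-month-old female mice on a 129Sv4/Jae and B6 background, with about 10000 cells in each reaction. XistΔ/Δ cells were homozygous for a floxed Xist allele (Xist2lox) deleted by Vav-iCre, a Cre whose Vav1 promoter is active throughout the hematopoietic system, which was meant to delete Xist in all blood lineages. The 4 groups (LSK+ WT, LSK+ XistΔ/Δ, LSK- WT and LSK- XistΔ/Δ) had 2 libraries each. The study's methods speak of the ATAC-seq libraries as biological replicates, the sources used here do not say whether each came from a separate mouse, and replicate number cannot be told apart from the sequencing run.

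The lists held between 29829 and 91590 peaks, and both XistΔ/Δ lists of a cell type were longer than the WT list of the same number. The genome background, a proxy for depth solved from the peak values, ranged from 0.482 fragments in LSK+ WT replicate 2 to 3.87 in LSK- XistΔ/Δ replicate 1. A peak within 3 kb of the start of Xist stood at ranks 12299 and 14543 for LSK+ WT and 14121 and 11190 for LSK- WT. The only XistΔ/Δ library with such a peak was LSK- replicate 2, at rank 45735. Neither marker list separated the cell types well. Of 8 genes that mark LSK+ cells, 6 had a top peak within 3 kb of a transcription start site (TSS) in each LSK+ library and 4 or 6 in each LSK- library, while Procr and Ly6a, which encodes Sca-1, had none in any library. Of 8 LSK- marker genes, the LSK- libraries held such a peak at 4 and 8 in WT and at 5 and 6 in XistΔ/Δ, against 4 or 5 in LSK+ libraries. LSK- WT replicate 1 lacked a top peak within 3 kb of a TSS at Mpo, Elane, Gata1 and Ms4a3. Between LSK- WT and XistΔ/Δ, libraries of the same number shared 72.5% and 70.4% of their autosomal regions, more than the 61.9% shared by the pair of libraries of each LSK- genotype. LSK- XistΔ/Δ replicate 2 shared more with LSK+ XistΔ/Δ replicate 2 (64.5%) than with LSK- XistΔ/Δ replicate 1 (61.9%).

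The 6 windows printed here are shown because they carry the genes named most below: the members at genes of the blood lineage lists outside exons, the region whose weakest WT rank was the best, and the 1 region with no peak at all in LSK- XistΔ/Δ cells. Each is 300 bp centred on the summit of the strongest peak, on the plus strand of GRCm38.p6 (mm10), and overlaps no annotated exon. Capitals mark matches on either strand to GATAA (GATA factors), GGAAGT (ETS factors), TGTGGT (RUNX factors), CAGCTG or CAGATG (E-boxes, bound by basic helix-loop-helix factors) and TGACAG (MEIS factors). The windows at Cebpa and Cebpe hold none of these letters.
Prdm16, chr4:154449299-154449598: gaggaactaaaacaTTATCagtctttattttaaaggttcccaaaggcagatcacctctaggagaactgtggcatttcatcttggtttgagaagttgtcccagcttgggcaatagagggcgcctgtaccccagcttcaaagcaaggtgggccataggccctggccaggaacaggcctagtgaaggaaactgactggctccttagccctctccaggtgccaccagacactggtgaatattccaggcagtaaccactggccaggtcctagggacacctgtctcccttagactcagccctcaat
Cebpa, chr7:35127162-35127461: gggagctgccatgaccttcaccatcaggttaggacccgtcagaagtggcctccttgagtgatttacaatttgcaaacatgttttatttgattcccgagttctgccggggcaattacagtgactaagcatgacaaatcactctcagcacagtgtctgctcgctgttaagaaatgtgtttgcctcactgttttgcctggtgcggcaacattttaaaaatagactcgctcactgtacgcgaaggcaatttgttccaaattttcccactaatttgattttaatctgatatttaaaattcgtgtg
Cebpe, chr14:54714152-54714451: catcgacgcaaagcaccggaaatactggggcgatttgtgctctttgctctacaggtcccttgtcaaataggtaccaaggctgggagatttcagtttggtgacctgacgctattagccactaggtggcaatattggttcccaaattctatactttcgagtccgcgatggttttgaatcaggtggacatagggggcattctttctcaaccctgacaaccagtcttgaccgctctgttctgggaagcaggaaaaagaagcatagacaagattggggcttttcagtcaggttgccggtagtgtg
Car2, chr3:14915396-14915695: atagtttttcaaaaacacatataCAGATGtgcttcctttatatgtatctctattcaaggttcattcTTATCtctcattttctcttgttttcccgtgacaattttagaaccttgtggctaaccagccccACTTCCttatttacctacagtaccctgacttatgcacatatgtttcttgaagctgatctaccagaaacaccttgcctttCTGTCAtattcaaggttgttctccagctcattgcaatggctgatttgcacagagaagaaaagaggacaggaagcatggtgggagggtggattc
Susd1, chr4:59395567-59395866: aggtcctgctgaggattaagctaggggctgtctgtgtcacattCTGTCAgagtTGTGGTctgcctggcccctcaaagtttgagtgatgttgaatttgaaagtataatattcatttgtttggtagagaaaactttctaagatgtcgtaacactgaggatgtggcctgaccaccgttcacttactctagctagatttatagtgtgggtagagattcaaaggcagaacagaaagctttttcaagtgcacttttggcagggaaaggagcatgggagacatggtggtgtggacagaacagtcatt
Gm43228, chr6:18800935-18801234: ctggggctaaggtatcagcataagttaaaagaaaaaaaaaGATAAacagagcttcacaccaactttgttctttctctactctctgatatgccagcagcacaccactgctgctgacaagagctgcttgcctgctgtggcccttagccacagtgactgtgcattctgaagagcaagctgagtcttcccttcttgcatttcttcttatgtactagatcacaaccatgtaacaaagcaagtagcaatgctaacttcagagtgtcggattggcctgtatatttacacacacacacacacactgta

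The first question was whether the accessibility was gone or weaker in LSK- XistΔ/Δ cells. Weaker peaks remained nearly everywhere. Over all deposited peaks, 228 of the 235 regions (97.0%, 95% Wilson interval 94.0 to 98.5) still held a peak in both LSK- XistΔ/Δ lists, 6 held one in replicate 1 alone and 1 held none. For comparison, 53.2% of the 16425 autosomal regions without a top peak in either LSK- XistΔ/Δ library had a peak in both full lists. Those regions did not need top peaks in the WT libraries, as the 235 did, so the shares are not like for like. Intervals cover counting error only, and regions are not replicates of the genotype. In bulk cells, fewer cells of a type and less open chromatin per cell cannot be told apart.

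The peaks left were placed close to the WT peaks, which is partly built in, since only peaks that overlapped the same region were counted. Their summits lay a median of 28 bp from the summit of the LSK- WT library of the same number in both replicates, and within 100 bp in 210 of 234 regions (89.7%) in replicate 1 and 198 of 228 (86.8%) in replicate 2. Their median fold enrichment was 8.84 and 8.05 for LSK- XistΔ/Δ replicates 1 and 2, beside 10.7 and 7.38 for LSK- WT. Their median −log10 q was 34.2 and 13.8, beside 25.4 and 10.7 for LSK- WT. Within each replicate number, the peaks left were thus listed with a smaller median q-value than the WT peaks, in a library with a higher genome background.

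The median rank of the regions (1 for the strongest peak) was 24097 and 24678 for LSK- WT and 37049 and 36998 for LSK- XistΔ/Δ, with the limit at 29829 between them. Both sides crowded against the limit. The weaker LSK- WT rank was within 20% of it in 187 of 235 regions (79.6%), and the stronger LSK- XistΔ/Δ rank was within 20% of it in 155 (66.0%). The gap between the weaker LSK- WT rank and the stronger LSK- XistΔ/Δ rank had a median of 8496 places and ran from 505 to 28310. It exceeded 5000 places in 170 of 234 regions and 20000 places in 11. Ranked by fold enrichment or by summit pileup in place of −log10 p, the rule gave 208 and 254 regions, of which 83 and 94 were among the 235. Eligible regions as a whole had median ranks between 8412 and 9256 in the LSK- libraries.

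**Figure D1:**
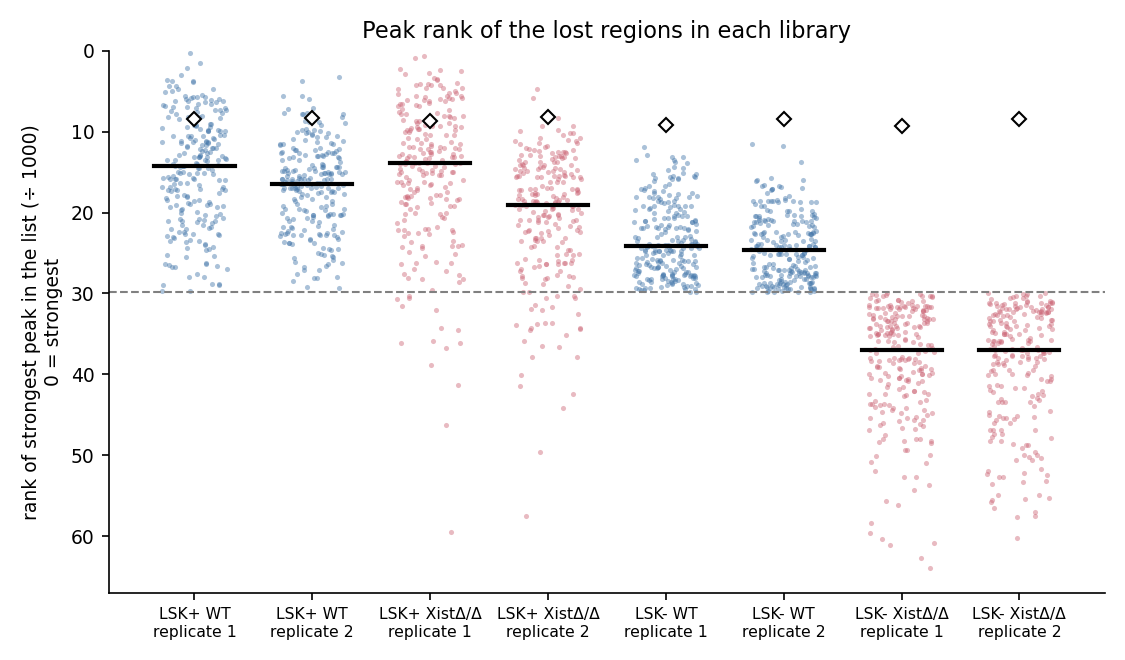
Rank of the strongest peak of each of the 235 regions in each of the 8 libraries, in units of 1000 places, with 0 at the top for the strongest peak. Points are regions, black bars their medians, white diamonds the median of the 15598 eligible regions, and the dashed line the limit of 29829; LSK- WT points sit above the line and LSK- XistΔ/Δ points below it because the rule chose them so, while the LSK+ XistΔ/Δ points, which the rule did not use, lie mostly above it.

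By the weaker LSK- WT rank, none of the 3174, 3521 and 3123 eligible regions whose weaker LSK- WT rank was 1 to 5000, 5001 to 10000 or 10001 to 15000 was lost, which allows shares of up to 0.0945%, 0.0852% and 0.0961% (3 counts of the total). The share was 14 of 2383 (0.587%) from 15001 to 20000, 57 of 1934 (2.95%) from 20001 to 25000, and 164 of 1463 (11.2%, interval 9.69 to 12.9) from 25001 to 29829. The bar plot by peak strength shows this rise. The rule used these ranks, and a region near the limit needs a smaller shift to cross it, so nothing about strong sites is read from this order. With the limit set at 14914 top peaks, the rule took 101 regions, of which 0 were among the 235.

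**Figure D2:**
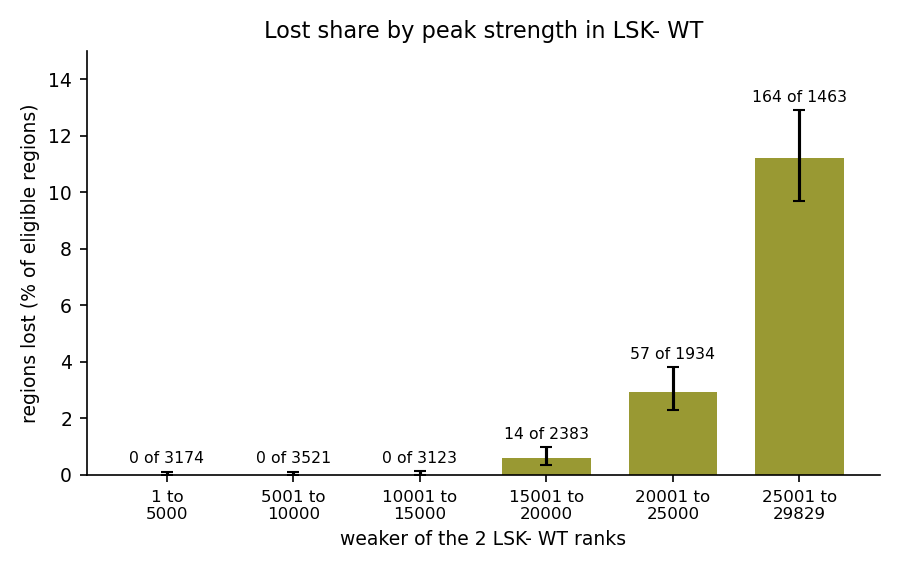
Share of eligible regions that were lost from both LSK- XistΔ/Δ libraries, in percent from 0, by the weaker of the 2 LSK- WT ranks. Bars carry the number lost of the number eligible, and error bars are 95% Wilson intervals; the share is 0 up to rank 15000 and 11.2% in the weakest class.

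At the limit, the nearest regions inside and outside were alike in rank. Gm36660 stood at ranks 29978 and 43471 for LSK- XistΔ/Δ replicates 1 and 2, Il18rap at 34122 and 29945, and Gm15427 at 30927 and 29951, all just past the limit. Slco2b1 (29822 and 42749), Ski (40291 and 29771) and Capn3 (30557 and 29752) missed being taken because 1 XistΔ/Δ rank was just inside it. In all, 884 eligible regions (5.67%) had a top peak in exactly 1 LSK- XistΔ/Δ library, held by replicate 1 in 392 and by replicate 2 in 492, and 14479 (92.8%) had 1 in both.

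The reverse case was smaller in number. Of 17026 autosomal regions with a top peak in all 4 XistΔ/Δ libraries, 139 (0.816%) had none in either LSK- WT library. In the full LSK- WT lists, which are shorter, 29 of these 139 (20.9%) held a weaker peak in both and 21 (15.1%) in neither. Read to one common depth of list, the first 37578 peaks, the difference between the directions was smaller. A peak was then left in both LSK- XistΔ/Δ lists for 63 of the 235 lost regions (26.8%, interval 21.6 to 32.8), and in both LSK- WT lists for 23 of the 139 (16.5%, interval 11.3 to 23.6). The share with weaker peaks thus depended on the length of the lists.

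The rule was also applied to replicate 1 alone, and the regions it took were examined in replicate 2, and the reverse. These are wider sets than the lost regions described above, which were chosen with all LSK- libraries. By construction, those lost regions count as lost in both replicates here. The split is therefore no independent reading of them, and it describes the wider sets only. Of 2277 regions lost between the replicate 1 libraries, 327 (14.4%, interval 13.0 to 15.9) were lost in replicate 2 and 342 (15.0%, interval 13.6 to 16.5) were gained there. Of 1738 regions lost between the replicate 2 libraries, 278 (16.0%, interval 14.3 to 17.8) were lost in replicate 1 and 103 (5.93%, interval 4.91 to 7.14) were gained. Among regions kept in the choosing pair, 3.02% and 3.16% were lost and 5.06% and 5.27% gained in the other. All 235 lost regions described above are among the 327 and among the 278, and they make up most of both counts. The order of loss and gain is therefore shaped by the rule, and nothing is read from it. The kept regions were not matched for rank, regions are not replicates of the genotype, and no difference between these shares was tested.

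**Figure D3:**
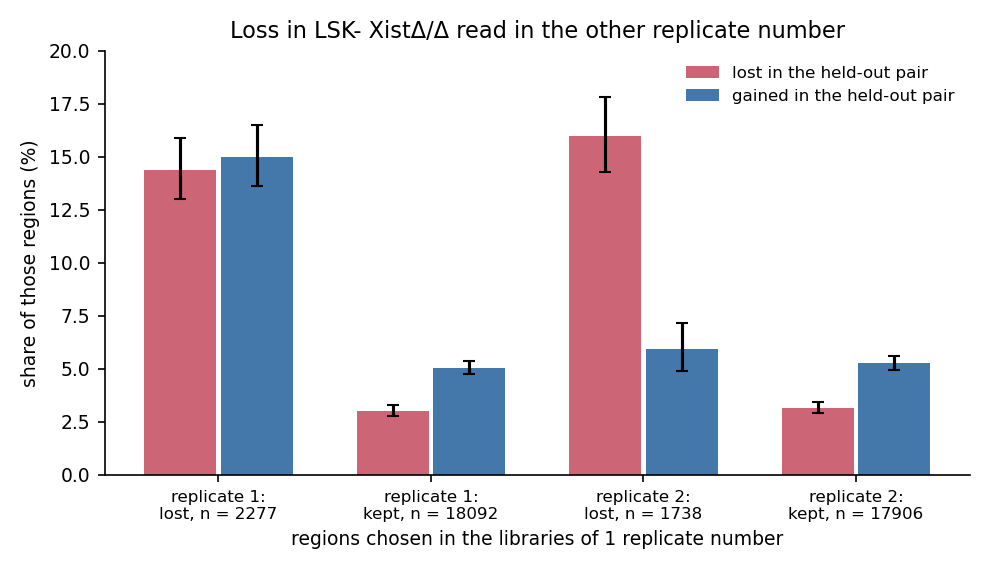
Share of regions lost from or gained in LSK- XistΔ/Δ in the pair of libraries that did not choose them, in percent from 0, for regions that were lost or kept in the choosing pair of replicate 1 or 2. Error bars are 95% Wilson intervals. Of regions lost in replicate 1, 15.0% were gained and 14.4% lost in replicate 2. Of those lost in replicate 2, 5.93% were gained and 16.0% lost in replicate 1. Both shares of loss include the 235 regions that the rule chose with these same libraries, so they are no independent reading.

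The height of the peaks was read from the fragment pileup at the summit. Relative to the median of eligible regions in the same list, the pileup in XistΔ/Δ was a median of 0.613 times that in LSK- WT in replicate 1 (quartiles 0.538 and 0.681, 234 regions) and 0.753 times in replicate 2 (0.627 and 0.868, 228 regions), where all eligible regions gave 0.966 and 0.955. Relative to the genome background, the ratio was 0.591 in replicate 1 but 1.03 in replicate 2 (quartiles 0.858 and 1.19), where eligible regions stood at 1.31. On this second scale the regions were lower in XistΔ/Δ in 110 of 228 cases (48.2%) in replicate 2, beside 9.42% of eligible regions (1468 of 15582). The direction in replicate 2 thus depends on the scaling. Pileup was solved from the same lists whose order chose the regions, so these ratios are a description.

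**Figure D4:**
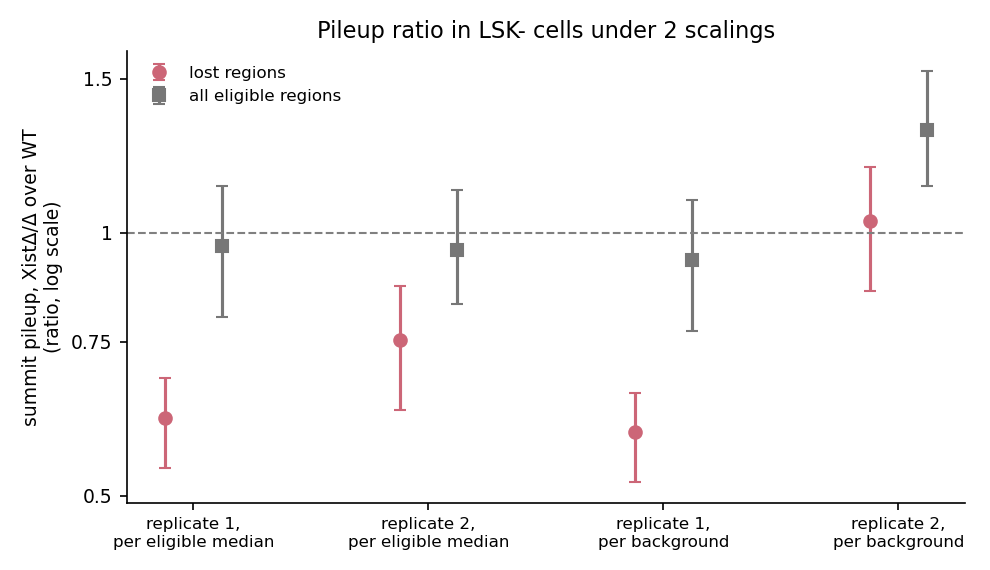
Ratio of the summit pileup in LSK- XistΔ/Δ to that in LSK- WT (log scale) for replicates 1 and 2, with pileups divided by the median of eligible regions of the same list or by the genome background. Points are medians and bars quartiles over the lost regions (circles) and all eligible regions (squares); the lost regions lie below 1 except in replicate 2 scaled to the background, at 1.03.

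The LSK+ XistΔ/Δ libraries were not used by the rule, and there most of the regions kept their top peaks. A top peak was present in both for 195 of 235 regions (83.0%, interval 77.7 to 87.2), in 1 for 35 (14.9%) and in neither for 5 (2.13%). The eligible regions gave 95.6%, 3.98% and 0.449%. Most regions lie near the limit, however, and eligible regions with a weaker LSK- WT rank between 25001 and 29829 held both LSK+ XistΔ/Δ peaks in 82.0%, beside 81.7% of the lost regions of that class. The LSK+ loss of 70 regions and the LSK- loss of 235 shared 5 regions, 7.14% of the first and 2.13% of the second.

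Within LSK+ cells, median ranks were 14211 and 16436 for WT and 13834 and 19111 for XistΔ/Δ. Both XistΔ/Δ ranks were weaker than both WT ranks in 58 regions (24.7%) and stronger in 9 (3.83%), beside 11.1% and 9.44% of eligible regions. The LSK+ WT libraries helped to choose the regions, so this is no test of LSK+ cells.

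The order of the WT cell types was read from ranks that the rule used, and it is a description. Both LSK+ WT ranks were stronger than both LSK- WT ranks in 153 of 235 regions (65.1%), beside 19.1% of eligible regions, and in 70.7% beside 44.1% in the class from 25001 to 29829. In 5 regions (2.13%, beside 15.0% of eligible regions) the order was the reverse, and these lay at Runx2, Tnfrsf1b, Mindy1, Cebpe and Cacna1d, named after their values were seen. A region absent from the LSK- XistΔ/Δ top peaks tends to be weak in LSK- cells, so the rule shapes this order. All 235 were top peaks of LSK- WT cells as well, and nothing here sets them apart as stem cell regions.

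Next, the position of the regions was examined, which the rule did not use. A summit within 3 kb of a TSS was called TSS-proximal. Of the 235 regions, 55 (23.4%, interval 18.4 to 29.2) were TSS-proximal, 105 (44.7%) lay in introns, 70 (29.8%) between genes and 5 (2.13%) in exons. Eligible regions were TSS-proximal in 62.7%, and all autosomal regions in 36.3%. Part of this goes with peak strength, since the TSS-proximal share of eligible regions declined from 94.1% at ranks 1 to 5000 to 39.4% at ranks 25001 to 29829, where the lost regions had 23.2%. Put the other way, 0.562% of eligible TSS-proximal regions were lost, 3.37% of intronic and 2.86% of intergenic ones. The regions gained in LSK- XistΔ/Δ had a like makeup, with 21.6% TSS-proximal.

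The regions were spread over the genome. Every autosome held between 4 (chromosome 16) and 24 (chromosome 10) of them, 0.717% to 2.75% of its eligible regions, and 6 lay within 100 kb of another. On the X chromosome, where the rule was not applied, 5 of 380 regions with a top peak in all 4 WT libraries (1.32%) had none in LSK- XistΔ/Δ. One of those 5 held the peak within 3 kb of the start of Xist, and its closest TSS, 838 bp away, was that of Gm27520. The others were assigned to Rp2, Mamld1, Gm7173 and Alg13. Median width was 698 bp, against 911 bp for eligible regions and 621 bp for all autosomal regions.

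The 235 regions were assigned to 234 genes, by the closest TSS within 3 kb and otherwise by the closest gene body. Protein-coding genes took 165 (70.2%, against 81.9% of eligible regions), pseudogenes 22, and noncoding RNAs or unclassified loci 48. Of the 70 intergenic regions, 20 lay over 100 kb from any coding gene, and the median distance was 26510 bp. An assignment names the neighbour and does not show which gene a region acts on.

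Of 7 lists of blood genes (305 genes), only a few members had a lost region. The granulocyte and monocyte list had 2 of its 28 eligible regions lost (7.14%, interval 1.98 to 22.6), at Cebpa and Cebpe. The stem cell list had 1 of 64 (Prdm16), the megakaryocyte and erythroid list 1 of 40 (Car2), and the cell cycle list 1 of 58 (Cdkn2a). The lymphoid list (42 regions), the interferon list (42) and the list of mast cells, basophils and eosinophils (3) had none, which allows up to 7.14% of the first pair and sets no limit for the last. No list was tested, and the background share is 1.51%.

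Prdm16 encodes a transcription factor needed to maintain hematopoietic stem cells. Its lost region, in an intron (chr4:154449125-154449754), stood at ranks 7431 and 7878 for LSK+ WT, 16520 and 18452 for LSK+ XistΔ/Δ, 24390 and 20396 for LSK- WT, and 38968 and 35790 for LSK- XistΔ/Δ. In LSK+ cells both WT ranks were stronger than both XistΔ/Δ ranks, as in 24.7% of the lost regions and 11.1% of eligible regions. The LSK- order was set by the rule. The raw summit pileup, which rises with the depth of a library, was 29 and 18 fragments for LSK- WT and 47 and 20 for LSK- XistΔ/Δ. Relative to the median of eligible regions in the same list, it was 0.392 and 0.346 for LSK- WT and 0.251 and 0.235 for LSK- XistΔ/Δ. Another intronic region of Prdm16 (chr4:154541460-154542230) kept its top peaks in LSK- XistΔ/Δ, at ranks 11487 and 15927.

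Cebpa encodes C/EBPα, the factor that commits progenitors to the granulocyte and monocyte lineages. The region lay between genes, 5384 bp beyond the gene body (chr7:35126971-35127835). Its ranks were 16345 and 18062 for LSK+ WT, 20578 and 27898 for LSK+ XistΔ/Δ, 26598 and 27042 for LSK- WT, and 34921 and 48231 for LSK- XistΔ/Δ. In LSK+ cells both XistΔ/Δ ranks were weaker than both WT ranks, as in 24.7% of the lost regions and 11.1% of eligible regions. The LSK+ WT libraries helped to choose the region. The Cebpa promoter region kept ranks of 6638 and 2886 for LSK- XistΔ/Δ, beside 9196 and 1856 for LSK- WT.

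Cebpe encodes C/EBPε, which acts late in granulocyte maturation. Its lost region (chr14:54713997-54715071) had its summit 2128 bp from a TSS of the gene. The ranks were 26377 and 23752 for LSK+ WT, 26085 and 25211 for LSK+ XistΔ/Δ, 18640 and 20460 for LSK- WT, and 38398 and 32871 for LSK- XistΔ/Δ. The LSK+ genotypes overlapped, and it was in LSK- WT that the region was strongest. The other eligible region at Cebpe (chr14:54705557-54706555) was among the strong peaks of every LSK- library, at ranks 1431 and 4000 for WT and 1632 and 4595 for XistΔ/Δ.

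Car2 encodes carbonic anhydrase 2, an enzyme abundant in red blood cells. The region lay 14776 bp from the gene body (chr3:14915257-14915946), at ranks 11664 and 22826 for LSK+ WT, 5714 and 19124 for LSK+ XistΔ/Δ, 19379 and 27667 for LSK- WT, and 31638 and 47374 for LSK- XistΔ/Δ. In LSK+ cells the genotypes overlapped. The Car2 promoter region kept its top peaks, at ranks 8165 and 10072 for LSK- XistΔ/Δ.

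Cdkn2a encodes the cell cycle inhibitors p16 and p19. Its TSS-proximal region (chr4:89294658-89295327, summit 404 bp from the TSS) stood at ranks 20790 and 22408 for LSK+ WT, 30657 and 23096 for LSK+ XistΔ/Δ, 27881 and 26350 for LSK- WT, and 37108 and 36024 for LSK- XistΔ/Δ. It was the only eligible region at the gene. In LSK+ cells both XistΔ/Δ ranks were weaker than both WT ranks.

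**Figure D5:**
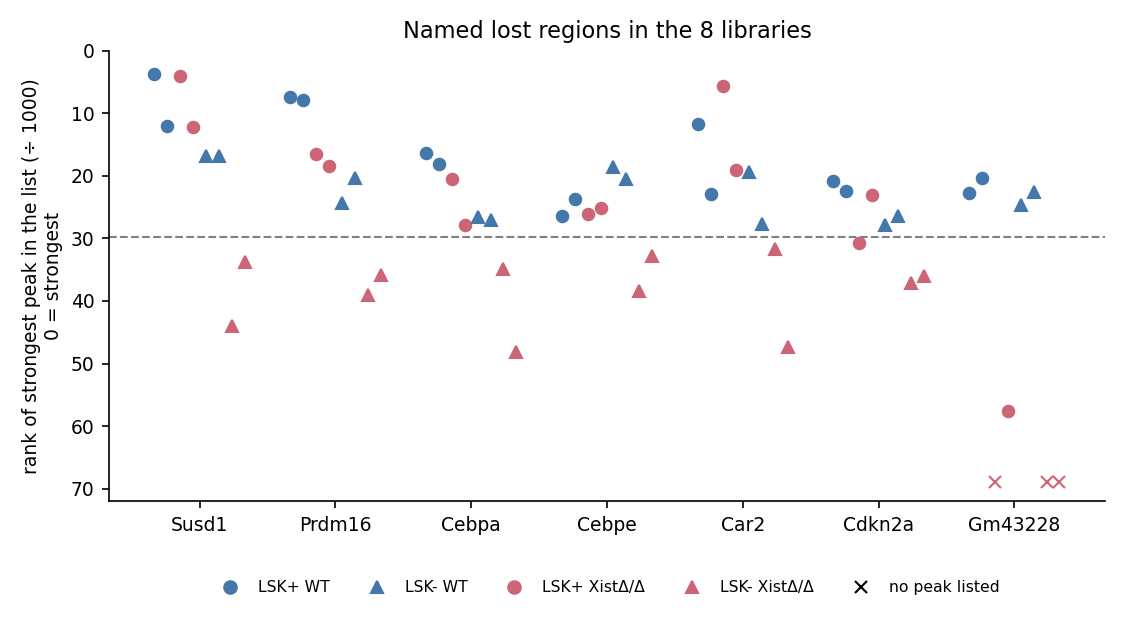
Rank of the strongest peak (in units of 1000 places, 0 at the top for the strongest) at 7 named regions in the 8 libraries. Circles are LSK+, triangles LSK-, blue WT, red XistΔ/Δ, crosses mark lists with no peak, and the dashed line is the limit of 29829; the red triangles lie below the line as the rule requires, Gm43228 has crosses in place of both, and the red circles of Susd1, Cebpe and Car2 overlap the blue circles.

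The 10 regions whose weakest WT rank was the highest were, in order, at Susd1, Gm37031, Npas3, Fzd8, Tph2, Gm3379, Apbb2, Gm15429, AC147229.1 and Gm38098. Their weaker LSK- WT ranks ran from 15157 to 19766, and all 10 kept top peaks in both LSK+ XistΔ/Δ libraries. Only Fzd8 and the pseudogene Gm3379 were TSS-proximal. Tph2 (serotonin synthesis in neurons) and Npas3 (a neuronal transcription factor) are genes best known from the brain.

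The Susd1 region, in an intron of a gene for a sushi domain protein (chr4:59395348-59395954), was the first of them. Its ranks were 3658 and 12010 for LSK+ WT, 4096 and 12207 for LSK+ XistΔ/Δ, 16779 and 16812 for LSK- WT, and 43983 and 33696 for LSK- XistΔ/Δ. The LSK+ genotypes overlapped, and the LSK- ranks were far apart as the rule asks. The raw pileup, which rises with the depth of a library, was 43 and 22 fragments for LSK- WT and 44 and 20 for LSK- XistΔ/Δ. Relative to the median of eligible regions in the same list, it was 0.581 and 0.423 for LSK- WT and 0.235 and 0.235 for LSK- XistΔ/Δ. Of the other 3 eligible regions at Susd1, 2 kept top peaks in both LSK- XistΔ/Δ libraries.

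The region near Tph2 (chr10:115060716-115061127, 17732 bp from the gene body) had the weakest remaining peaks of the 10, at ranks 52000 and 46871 for LSK- XistΔ/Δ beside 15523 and 18561 for LSK- WT. In LSK+ cells it stood at 17214 and 15269 for WT and 18379 and 22275 for XistΔ/Δ. Fzd8, a Wnt receptor gene, had its lost region at the TSS (summit 42 bp away, chr18:9211676-9212591). The ranks there were 12110 and 7163 for LSK+ WT, 20004 and 18779 for LSK+ XistΔ/Δ, 18141 and 18506 for LSK- WT, and 32433 and 37025 for LSK- XistΔ/Δ. In LSK+ cells both XistΔ/Δ ranks were the weaker.

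The 1 region without any peak in LSK- XistΔ/Δ lay near the pseudogene Gm43228 (chr6:18800931-18801423), 47494 bp from Lsm8, the nearest coding gene. It had ranks of 22760 and 20288 for LSK+ WT and 24603 and 22574 for LSK- WT. In LSK+ XistΔ/Δ replicate 1 there was no peak either, and replicate 2 had one at rank 57517. The pileup was 28, 10, 30 and 16 fragments in the WT libraries and 10 in the one XistΔ/Δ peak. The lowest summits listed in LSK- XistΔ/Δ were 13 and 7 fragments, and a weaker signal than that would not be seen.

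The 6 regions with a peak left in LSK- XistΔ/Δ replicate 1 alone lay at Fat1, Pdss2, Gm12326, Lmf1, Magi2 and Heca, named after their values were seen. Their ranks in replicate 1 ran from 30296 (Magi2) to 53628 (Lmf1). All 6 had a listed peak in both LSK+ XistΔ/Δ libraries. Where a peak was left in replicate 1, the weakest were at Gm24420 (64000), Arhgef10 (62741) and Tmem135 (61059), and these 3 stood at 40065, 38951 and 40008 in replicate 2.

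The 5 regions with no top peak in LSK+ XistΔ/Δ either lay at Gm43228, Mindy1, Gm11922, Hivep1 and Fam110c. Mindy1 encodes a deubiquitinase, and its TSS region (chr3:95282727-95283520) stood at ranks 26339 and 25456 for LSK+ WT, 59469 and 44102 for LSK+ XistΔ/Δ, 20367 and 18748 for LSK- WT, and 34729 and 36618 for LSK- XistΔ/Δ. Hivep1, a zinc finger factor gene, stood at 36721 and 42395 for LSK+ XistΔ/Δ and 40144 and 43461 for LSK- XistΔ/Δ. At the TSS of Fam110c the ranks were 30275 and 33619 for LSK+ XistΔ/Δ and 42608 and 41409 for LSK- XistΔ/Δ, with all 4 WT ranks between 20520 and 29264.

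A few other regions are given with values as single examples. They were picked by name after the values were seen, and they stand for no group and no count. At cytokine receptor genes, the Il15ra TSS region had ranks of 18024 and 26481 for LSK- WT and 32016 and 34523 for LSK- XistΔ/Δ, and the Tgfbr2 exon region had 26024 and 23527 beside 32669 and 32522. Stat4, a factor activated by interleukin 12, had 24240 and 28725 beside 46215 and 34071 at a TSS inside the gene body (summit 404 bp away). Mfng, a glycosyltransferase that modifies Notch receptors, was strong in LSK+ WT (3679 and 3734) and stood at 28743 and 20421 for LSK- WT and 43848 and 36531 for LSK- XistΔ/Δ. The region near Nrarp, a Notch target, had 21100 and 27369 for LSK- WT and 46188 and 43230 for LSK- XistΔ/Δ, with LSK+ ranks between 6738 and 10751 in both genotypes.

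The intronic region of Tet1, which encodes an enzyme that oxidises methylated DNA, had ranks of 18102 and 27140 for LSK- WT and 45277 and 36720 for LSK- XistΔ/Δ. The region 3560 bp from Dot1l, a histone methyltransferase gene needed by blood progenitors, had 28124 and 23326 beside 33167 and 30624. The intronic region of Fyn, a kinase of lymphocyte signalling, stood at 6871 and 8771 for LSK+ WT, 4715 and 12966 for LSK+ XistΔ/Δ, 28197 and 27073 for LSK- WT, and 48480 and 57014 for LSK- XistΔ/Δ.

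Lastly, the 300 bp windows were searched for short motifs on both strands. A match is a description of letters and not evidence of binding. Because most lost regions were distal, the 180 TSS-distal ones were set beside 3077 other TSS-distal eligible regions whose weaker LSK- WT rank was over 15000. The sets were not matched for rank beyond that. An E-box (CAGCTG or CAGATG) was found in 51.7% (interval 44.4 to 58.9) beside 43.9%, TGTGGT in 46.1% (39.0 to 53.4) beside 38.4%, and TGACAG in 31.7% (25.3 to 38.8) beside 24.7%. Of the E-boxes, CAGATG was found in 33.3% (26.9 to 40.5) beside 25.8%, and CAGCTG in 26.7% (20.7 to 33.6) beside 24.3%. GGAAGT was found in 46.1% beside 45.2%, GATAA in 28.9% (22.8 to 35.9) beside 30.8%, and a C/EBP motif (TTGCNNAA or TTGCNNNAA) in 20.6% beside 20.4%. Over all autosomal regions, 37.9% held an E-box, 29.9% TGTGGT, 22.2% TGACAG, 33.9% GGAAGT, 33.0% GATAA and 18.9% a C/EBP motif.

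For the remaining motifs, intervals are given where the shares lay furthest apart in proportion. AP-1 (TGANTCA) was found in 12.8% of the distal lost regions beside 14.4%, IRF (GAAANNGAA) in 13.3% beside 12.1%, STAT (TTCNNNGAA) in 9.44% beside 8.25%, NFY (CCAAT) in 28.3% beside 27.0%, YY1 (AAGATGG) in 6.11% (3.45 to 10.6) beside 4.22%, the CTCF core (CCACNAGG) in 7.22% (4.27 to 12) beside 10.8%, and SP/KLF (GGGGCGGGG) in 1.11% (0.305 to 3.96) beside 2.76%. Over all autosomal regions these were found in 10.5%, 9.97%, 8.17%, 30.6%, 5.40%, 9.02% and 6.86%. The lost windows had a median GC content of 50.3%, below the 57.3% of all eligible regions, but the 49.7% of distal lost windows was close to the 50.3% of the comparison regions.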

How the data were processed

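ATAC-seq was analysed in 8 libraries (LSK+ and LSK- cells, WT and XistΔ/Δ, 2 each). Per the study's methods, the authors trimmed reads and aligned these to mm10 with Bowtie2 2.3.5.1, removed reads of mapping quality under 30 and mitochondrial reads with SAMtools 1.10, and called peaks per library with MACS2 2.2.7.1 at a q-value of 0.01, without pooling. A control library, removal of duplicates or a Tn5 shift is not given in the sources used here. The deposited lists hold fold enrichment (a ratio), −log10 p-values, −log10 q-values, a score equal to a multiple of the −log10 q-value, and the summit offset. Only the authors' values within a list were ranked.

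Peaks on chromosomes 1 to 19 and X were used (Python 3.11.15, pandas 2.3.3, scipy 1.17.1). A library had a region when a top peak overlapped it by 1 bp. Pileup and background were solved from fold and −log10 p, with 100% of peaks solved in every list, after a test on simulated data. Fragment length also enters the background, so it is a proxy for depth. Position and windows used the summit of the strongest peak and the GENCODE M21 basic annotation. All 20 chromosomes' last peaks lay inside the GRCm38.p6 chromosomes.

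The regions were chosen by these values, with 2 libraries per group, so no test was made. Counts stand beside eligible regions. Members and gene lists were chosen with earlier results of these data known. Named regions were the 10 with the highest lowest WT rank among top peaks, those with no LSK- XistΔ/Δ peak, those at listed genes, those without LSK+ XistΔ/Δ top peaks, genes with 2 or more (not reported here), those nearest the limit and the 3 weakest in LSK- XistΔ/Δ replicate 1. Others are said to be chosen after their values were seen. Alternatives changed the ranking, list length, overlap, q-value and libraries.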

Additional observations from a re-analysis of the deposited data

Results flagged for a closer look

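In 9 lost regions (3.83%, beside 9.44% of eligible regions for the LSK+ order alone), both LSK+ XistΔ/Δ ranks were stronger than both LSK+ WT ranks, while the rule fixed the opposite order in LSK- cells. The difference between the cell types was not tested, and the LSK- order is no finding. The widest LSK+ gap was in an intron of Rasgef1b (chr5:99438200-99438938), at ranks 28007 and 24412 for LSK+ WT and 9412 and 19568 for LSK+ XistΔ/Δ. An intronic region of Runx2, a RUNX transcription factor gene, stood at 24366 and 23726 for LSK+ WT and 19171 and 17586 for LSK+ XistΔ/Δ. The weaker LSK+ XistΔ/Δ rank of the others was 13068 at AC151280.3, 17153 at Plekha6, 15425 at Dclk1, 21867 at Tenm4, 17046 at Gm26819, 18706 at Trmt11 and 18991 at Cdh5.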

How the results depend on the processing

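The number of lost regions was 208 when peaks were ranked by fold enrichment, 254 by summit pileup and 234 by −log10 p at the depth of the shallowest library. Of the 235, 83 and 94 were shared with the first and second of these sets and 222 with the last. Taking 14914 top peaks per list gave 101 regions (0 shared, with 100% of them holding a weaker peak in both LSK- XistΔ/Δ lists), cover of at least 50% gave 74 (48 shared), all deposited peaks gave 12 (1 shared) and a −log10 q of at least 5 gave 5 (1 shared). With a library left out, the number ran from 235 to 727: 711 without LSK- WT replicate 1, 660 without replicate 2, 628 without LSK- XistΔ/Δ replicate 1 and 727 without replicate 2, where the rule asks less. The share with a weaker peak in both lists was 98.8% by summit pileup, and 88.6% to 99.7% with a library left out. The 99.7% was without LSK- XistΔ/Δ replicate 2 and counts the remaining list alone. The share was 0% of the 5 regions at the −log10 q limit and had no value over all deposited peaks, where no weaker peak can exist. The share with both LSK+ XistΔ/Δ top peaks was 75.5% by fold, 91.7% over all deposited peaks, and 67.7% to 93.2% with a library left out. The 93.2% was without LSK+ XistΔ/Δ replicate 2 and counts the remaining LSK+ XistΔ/Δ library alone. The TSS-proximal share was 40% of the 5 regions at the −log10 q limit, 20.5% to 29.0% with a library left out, and within the interval of the main value in 6 of the 7 other alternatives. The cause of these shifts was not tested beyond what each setting changes by its construction. No paired analysis was possible because the result comes from no test; libraries of the same number are set side by side as values only. Presence needed a peak call, so signal under the lowest listed pileup (5 to 13 fragments by library) was not detectable.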
